A study of Mus musculus with 6 samples.

Results

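Tetrahydrobiopterin (BH4) is the cofactor that nitric oxide (NO) synthases need to make NO from arginine. The 9 genes described here encode the enzymes that make and recycle BH4 (Gch1, Pts, Spr, Qdpr and Pcbd1), the protein that regulates the first of them (Gchfr), and the neuronal, inducible and endothelial NO synthases (Nos1, Nos2 and Nos3). They were chosen by name, and every array probe whose platform gene symbol is one of them was taken, which gave 17 of the 45281 probes for 9 of the 19057 genes that the platform names. Gch1 was already known from these arrays to be among the most strongly lowered genes, so the comparison of GFP-positive with GFP-negative cells helped to choose the set. Differences of the 9 genes are therefore given as a description; the count of their probes past the threshold stands once beside that of all probes, and supports nothing.

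The study profiled sorted stromal cells of epididymal fat with 1 Illumina 1-colour bead array per sample; the donors were Zfp423-GFP reporter mice, male and 5 weeks old. Zfp423 encodes a transcription factor with zinc fingers that is known from preadipocytes. The 3 GFP-positive and the 3 GFP-negative samples shared the same gate, with PDGFRβ present and both CD31, found on endothelium, and CD45, found on leukocytes, absent. Both groups therefore carry the reporter and were separated by GFP fluorescence. The replicates were described as biological, with no number of animals stated for any of them. The sample titles open with the letters RG (GFP-positive replicates 1 and 2, GFP-negative replicate 1) or KM (the other 3 arrays); what these letters stand for is not stated either, and each difference below was also taken within each set.

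BH4 is made from GTP. GTP cyclohydrolase 1, the product of Gch1, catalyses the first and usually rate-limiting step, and GFRP, the product of Gchfr, binds that enzyme and mediates feedback inhibition by BH4. The enzymes encoded by Pts and Spr then complete the synthesis, and after BH4 has been oxidised in a reaction it is regenerated by the products of Pcbd1 and Qdpr. In endothelium and macrophages, inflammatory cytokines are known to raise Gch1, in macrophages together with Nos2; NO then acts on neighbouring smooth muscle through soluble guanylate cyclase and cyclic GMP.

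The upstream sequences of Gch1, Spr and Pcbd1 are shown because these 3 of the 5 detected genes had the largest differences, in opposite directions. They are the 250 bases before the annotated start, 5′ to 3′ on the strand of the gene, from RefSeq on GRCm38.p6. Capitals mark 3 motifs searched on both strands: CCAAT (the CCAAT box, or ATTGG on the other strand), TGACG (the core of the cyclic AMP response element, or CGTCA) and GGGCGG (the GC box, or CCGCCC). None of these motifs overlaps another in the 3 sequences.
Gch1, chr14:47189414-47189663, minus strand: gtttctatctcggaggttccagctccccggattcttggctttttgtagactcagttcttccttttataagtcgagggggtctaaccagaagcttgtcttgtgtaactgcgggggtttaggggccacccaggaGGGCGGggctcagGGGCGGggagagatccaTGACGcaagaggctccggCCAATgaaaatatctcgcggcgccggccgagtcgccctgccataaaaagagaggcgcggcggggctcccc
Spr, chr6:85137765-85138014, minus strand: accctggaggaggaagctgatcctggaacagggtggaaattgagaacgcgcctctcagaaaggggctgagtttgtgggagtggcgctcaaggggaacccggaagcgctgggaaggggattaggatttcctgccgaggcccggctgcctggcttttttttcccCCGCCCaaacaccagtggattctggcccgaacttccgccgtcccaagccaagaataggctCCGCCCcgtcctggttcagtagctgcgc
Pcbd1, chr10:61089081-61089330, plus strand: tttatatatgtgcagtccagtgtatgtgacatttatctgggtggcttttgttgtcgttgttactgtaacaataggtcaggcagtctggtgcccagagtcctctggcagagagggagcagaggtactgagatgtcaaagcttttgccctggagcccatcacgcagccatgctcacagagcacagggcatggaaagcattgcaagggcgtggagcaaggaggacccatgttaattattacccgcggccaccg

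The Gch1 window holds 1 TGACG core, whose first base lies 88 bases before the start, and 1 CCAAT box, whose first base lies 70 bases before it. A CRE-like element beside a CCAAT box is known from the proximal Gch1 promoter of the rat. Of the 32851 promoter windows in the table, 17.8% hold TGACG, 33.8% hold CCAAT and 6.12% hold both. Gch1 also holds 2 GC boxes, Spr holds 2 and Pcbd1 none, against 32.7% of all windows with at least 1. A promoter entry was found for 7 of the 9 genes, and 5 of these 7 hold a GC box. These matches are a description of the letters in these windows.

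Before the results, the arrays and the gate were checked. Between 13068 and 14026 probes were detected per array (detection p under 0.01), median raw signals lay between 145.8 and 162.0, and pairs of arrays correlated at 0.982 to 0.990 within a group and at 0.948 to 0.960 across groups (tested probes). Zfp423 was detected with its brighter probe on all arrays and averaged 7.46 ± 0.27 in the GFP-positive group and 7.34 ± 0.20 in the GFP-negative group (log2, SD, n = 3 each), with overlapping groups, so this transcript does not tell the groups apart. Pdgfrb and Pdgfra were detected on all 6 arrays, and the 4 probes of Ptprc, the CD45 gene, were detected on none. Pdgfrb, the gene of the gate's positive marker, was higher in GFP-positive cells, without group overlap (log2 0.58 ± 0.11 SE, limma adjusted p = 0.0172). Pdgfra differed by -0.08 ± 0.11, with overlapping groups. Pecam1, which encodes CD31, was detected on all 6 arrays with 1 of its 3 probes.

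Of the 17 probes, 6 were tested, that is, detected on at least 3 of the 6 arrays, and 11 were detected on none. The tested probes are both probes of Gch1 and 1 probe each of Pts, Spr, Qdpr and Pcbd1. All 6 had groups that did not overlap, 5 lower and 1 higher in GFP-positive cells. In limma's fit over all 13727 tested probes, 4 of the 6 passed an adjusted p of 0.05 (both Gch1 probes and Spr as lower, Pcbd1 as higher), where 15.6% of all tested probes passed (7.85% as higher, 7.77% as lower) and 36.3% had groups without overlap. Among genes, taken at their brightest probe, 36.5% of those tested had groups without overlap. The median log2 difference was -0.50 over the 6 probes and -0.05 over all tested probes. Since the 9 genes were chosen with this comparison in view, and a probe can pass the filter through 1 group alone, nothing is read from these counts.

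**Figure D1:**
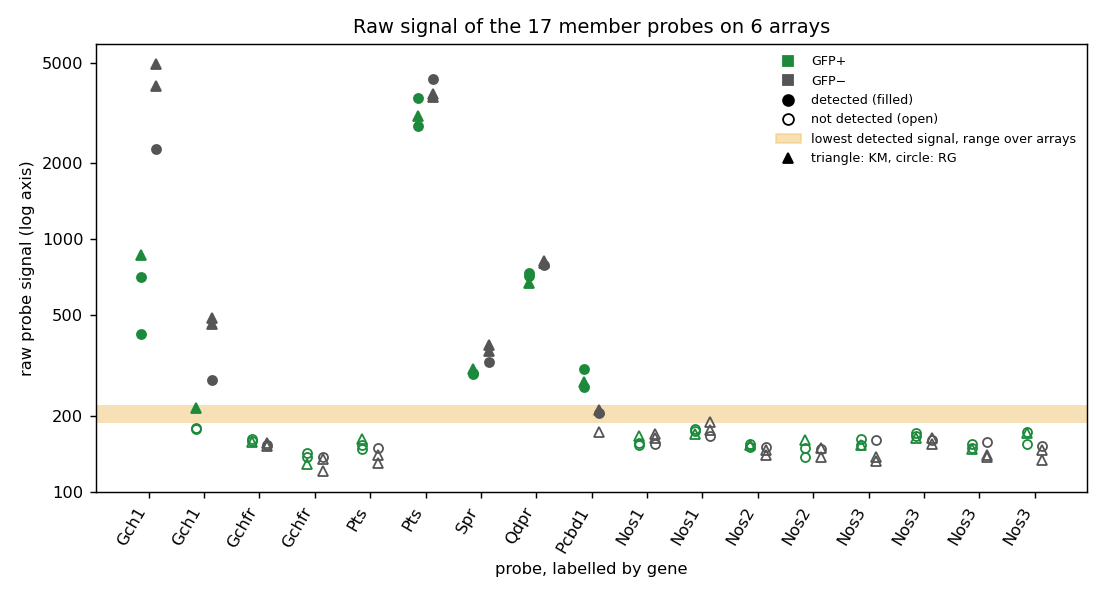
Raw signal (log axis) of each of the 17 probes on the 6 arrays, GFP-positive (green) left of GFP-negative (grey), filled where detected and open where not. The shaded band spans the lowest signal that counted as detected, 188.3 to 221.9 over the arrays; Gch1 stands apart between the groups, while all Gchfr, Nos1, Nos2 and Nos3 probes lie below the band or at its lower edge.

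Gch1, which sets the entry of GTP into BH4 synthesis, was much lower in GFP-positive cells. Its brighter probe (ILMN_2606295) had raw signals of 422.3, 706.8 and 863.9 in GFP-positive cells, against 2279.3, 4049.8 and 4918.3 in GFP-negative cells. After normalization these were 8.16, 9.10 and 9.43 in GFP-positive and 11.10, 11.99 and 12.24 in GFP-negative cells (log2). Every GFP-positive array lay below every GFP-negative array by more than 1 log2 unit. The group means were 8.90 ± 0.66 and 11.77 ± 0.60 (SD, n = 3 each), a log2 difference of -2.88 ± 0.40 (SE), or 7.34-fold lower. By fitted value it ranked 10th from the lowest among the 8819 genes tested, where 211 genes passed the threshold at 2-fold lower or more. In bulk samples, fewer cells that express a gene and less of its RNA per cell cannot be told apart.

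The second Gch1 probe (ILMN_2753029) gave the same direction at a lower signal. It read 5.60, 5.38 and 6.22 in GFP-positive and 7.22, 8.61 and 8.48 in GFP-negative cells (log2). It was detected on 1 of 3 GFP-positive arrays and on 3 of 3 GFP-negative arrays, so its GFP-positive values lie mostly at background. The difference was -2.37 ± 0.40 (SE), and -1.18 without background correction. Where on the transcript the 2 probes lie was not checked.

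Of the 5 detected genes, Gch1 also varied most within a group. Its pooled within-group SD was 0.63 for the brighter and 0.62 for the other probe (log2), above at least 96.9% of all tested probes, whose median was 0.18. With the brighter probe the KM arrays read higher than the RG arrays by 0.79 in GFP-positive and by 1.02 in GFP-negative cells (log2), but the 2 RG arrays of GFP-positive cells also lay 0.94 apart. The other probe read higher on the KM arrays by 0.73 in GFP-positive and by 1.33 in GFP-negative cells. The lower level in GFP-positive cells was seen within both sets, by -2.46 among the RG arrays and -2.69 among the KM arrays for the brighter probe. Leaving out single arrays moved it between -3.21 (without GFP-negative replicate 1) and -2.51 (without GFP-positive replicate 1).

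**Figure D2:**
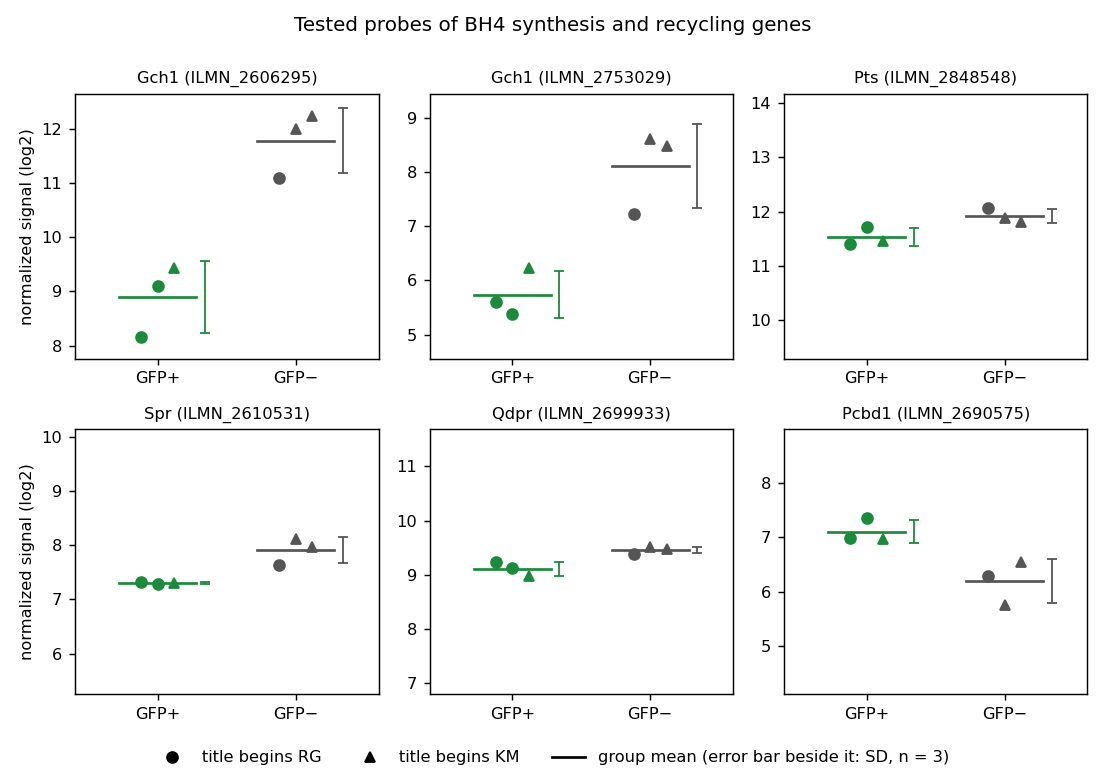
Normalized log2 signal of the 6 tested probes on each array, GFP-positive left of GFP-negative, circles for titles that open with RG and triangles for KM; lines are group means and error bars SD (n = 3), and all panels span the same number of log2 units. The brighter Gch1 probe lies between 8.16 and 9.43 in GFP-positive and between 11.10 and 12.24 in GFP-negative cells, a wider separation than in the panels of Pts, Spr and Qdpr.

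The enzymes that act after Gch1 were lower by much smaller amounts. Pts, which encodes 6-pyruvoyltetrahydropterin synthase, read 11.40, 11.72 and 11.46 in GFP-positive cells and 12.06, 11.88 and 11.81 in GFP-negative cells (ILMN_2848548, log2). Its groups nearly met, and the difference was -0.39 ± 0.13 (SE). The other Pts probe (ILMN_1217378) was not detected on any array.

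Spr encodes sepiapterin reductase, which completes BH4. It read 7.32, 7.28 and 7.30 in GFP-positive cells, nearly the same on each array, and 7.64, 8.11 and 7.97 in GFP-negative cells (log2). The difference was -0.61 ± 0.14 (SE), or 1.52-fold lower. Without background correction it was -0.37. Among the RG arrays alone it was -0.34, and among the KM arrays -0.74. Spr lost its call under 8 of 17 alternatives.

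The recycling enzymes did not go the same way. Qdpr, the dihydropteridine reductase that returns the oxidised cofactor to BH4, read 9.23, 9.12 and 8.97 in GFP-positive and 9.39, 9.51 and 9.47 in GFP-negative cells (log2), a difference of -0.35 ± 0.11 (SE). It was lower by a similar small amount to Pts. Pcbd1, the carbinolamine dehydratase of the recycling arm that also serves as the dimerization cofactor of the transcription factor HNF1, was the one detected gene that was higher. It read 6.98, 7.35 and 6.98 in GFP-positive cells, where it was detected on 3 of 3 arrays, and 6.28, 5.75 and 6.55 in GFP-negative cells, where it was detected on 2 of 3 (log2). The difference was 0.91 ± 0.22 (SE), or 1.88-fold higher, and 0.39 without background correction. Pcbd1 lost its call under 8 of 16 alternatives. Its raw signals (260.8, 305.7 and 271.9 in GFP-positive cells, against 204.6, 172.8 and 211.7 in GFP-negative cells) lie close to the detection limit.

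**Figure D3:**
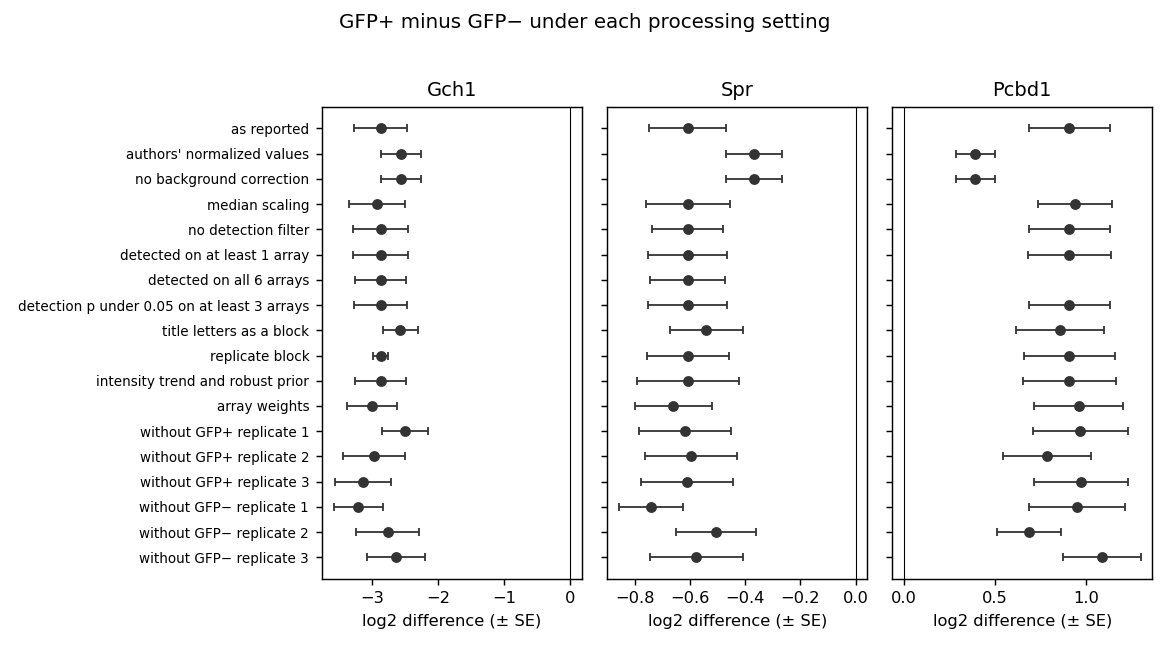
Log2 difference, GFP-positive minus GFP-negative, of Gch1 (brighter probe), Spr and Pcbd1 under each processing setting, with SE, each panel on its own scale. Gch1 lies between -3.21 and -2.51, Spr between -0.74 and -0.37 and Pcbd1 between 0.39 and 1.09.

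The regulator of GTP cyclohydrolase 1 and the NO synthases were not detected. Both Gchfr probes lay between 121.3 and 162.1 in raw signal, with detection p of 0.113 or more on every array. The 8 probes of Nos1, Nos2 and Nos3 lay between 133.0 and 189.0. The lowest signal that counted as detected was 188.3 to 221.9 over the arrays, so a level below that range could not be seen and no fold was formed for these genes. The probe nearest to detection was that of Nos1 ILMN_2770096, with raw signals of 177.6, 174.1 and 169.8 in GFP-positive and 166.4, 176.0 and 189.0 in GFP-negative cells and a lowest detection p of 0.0150 on GFP-negative replicate 3. For Nos2 the lowest detection p was 0.179 and for Nos3 it was 0.0641.

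The cell types known for these synthases were looked up by their markers. Endothelial cells are the main site of Nos3: of 12 endothelial markers 10 were tested, Eng rose (0.43 ± 0.11, SE), Tek, the angiopoietin receptor gene, fell (-1.64 ± 0.12), and the list's median was 0.16, beside -0.02 over all genes. The summed raw signal of the list was 9205.2 to 9658.5 on GFP-positive and 14555.5 to 15572.9 on GFP-negative arrays, but without Tek it was 5884.5 to 6494.9 on GFP-positive and 5261.0 to 5762.7 on GFP-negative arrays. Emcn read 0.74 ± 0.22, Cdh5 0.61 ± 0.31, Pecam1 -0.41 ± 0.23 and Cldn5 -0.39 ± 0.26 (SE), with no call in limma (adjusted p = 0.0657, 0.239, 0.291 and 0.374). Defining endothelial markers such as Cdh5 (3 of 3 GFP-positive and 1 of 3 GFP-negative arrays), Vwf and Pecam1 (6 arrays each) were detected, while Tie1 was not. Macrophages are the best known source of Nos2: of 11 leukocyte and macrophage markers 6 were detected on no array, Ptprc, Adgre1, Itgam and Tyrobp among them. Lyz2 was higher by at least 6.96-fold and Csf1r by at least 2.42-fold. Both passed the filter through GFP-positive cells alone, so their calls support nothing. The other tested members did not pass in limma: Fcer1g read -1.12 ± 0.47, Cd14 0.42 ± 0.25 and Laptm5 0.27 ± 0.42 (SE; adjusted p = 0.161, 0.305 and 0.707), each with overlapping groups. Summed signals were 3670 to 4015 on GFP-positive and 2917 to 3150 on GFP-negative arrays, and without Lyz2 2782 to 2896 on GFP-positive and 2513 to 2730 on GFP-negative arrays. None of 7 mast cell markers was detected on any array, with summed signals of 1979 to 2189 on GFP-positive and 1915 to 2008 on GFP-negative arrays over 14 probes. Of 6 nerve and Schwann cell markers 1 was tested, Uchl1, which was not detected in GFP-positive cells and was at least 2.98-fold lower. Uchl1 passed the filter through GFP-negative cells alone, so its call supports nothing. Sox10 and S100b were detected on no array. Summed signals were 1008.2 to 1045.4 on GFP-positive and 1113.4 to 1188.2 on GFP-negative arrays. The part of other cell types in the Gch1 difference was not tested.

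The genes around the pathway were taken from 6 lists by role. In all 46 of 73 listed genes were tested and 12 passed an adjusted p of 0.05 in limma (8 higher, 4 lower, 26.1%; without Jak1, whose probes have opposite signs, 11 of 45, 3 of them lower, 24.4%), where 15.8% of the 8819 genes tested passed (8.65% higher and 7.17% lower). Their median log2 difference was -0.06, beside -0.02 over all genes tested. The lists were drawn up with earlier results of these arrays known, and Slc7a2 passed the filter through GFP-positive cells alone. Nothing is therefore read from these counts.

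**Figure D4:**
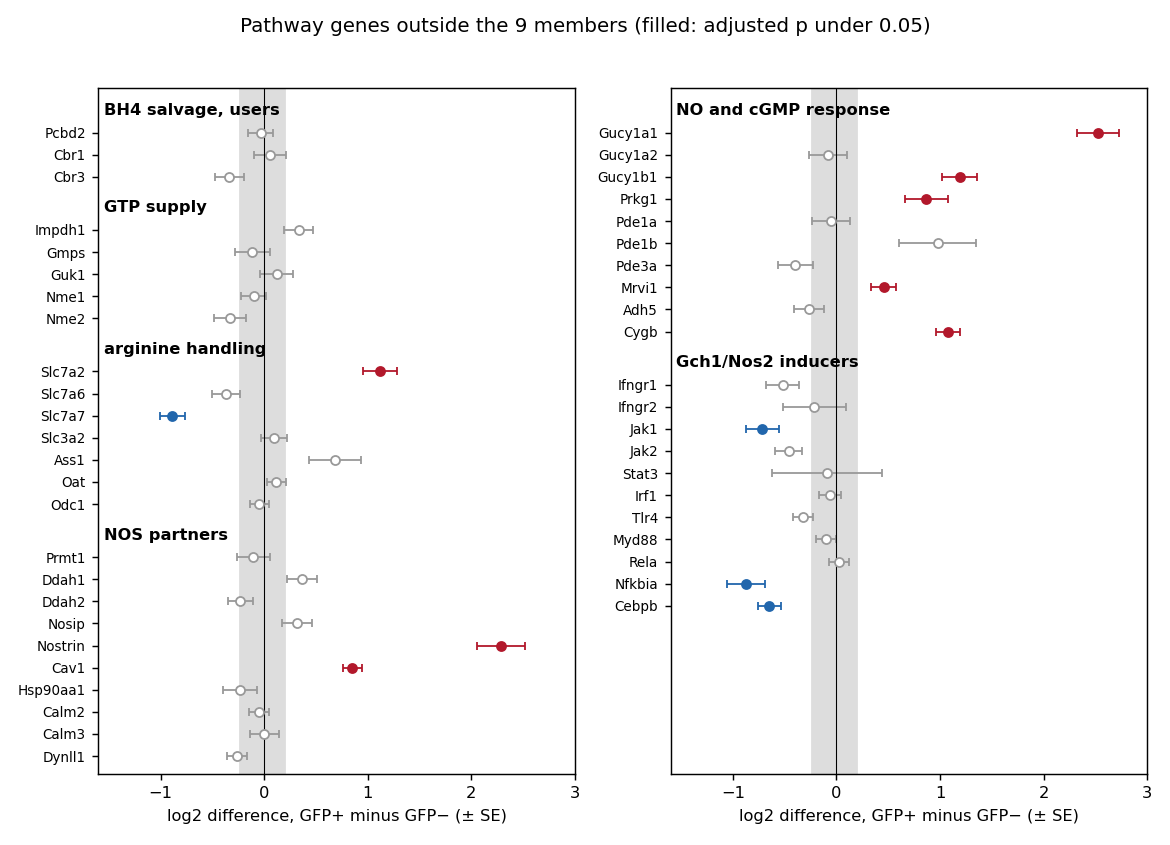
Log2 difference, GFP-positive minus GFP-negative, with SE for each of the 46 tested genes of the 6 lists; filled red (higher) and blue (lower) points passed an adjusted p of 0.05. The grey band spans the middle 50% of all tested genes, -0.23 to 0.20. The filled points at the right are mostly in the list headed NO and cGMP response, which holds the NO receptor, cyclic GMP effectors and breakdown.

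Genes that supply or use BH4 outside the 9 showed no call. Of 8 users and helpers of BH4 with a probe, 3 were tested, the dehydratase paralogue gene Pcbd2 and the carbonyl reductase genes Cbr1 and Cbr3, and none passed in limma; Cbr3 had the lowest p (-0.34 ± 0.14, SE, adjusted p = 0.154) and Cbr1 read 0.06 ± 0.16 (adjusted p = 0.840). The BH4-dependent enzymes Th, Tph1, Tph2 (which make catecholamines and serotonin) and Agmo (which cleaves ether lipids) were detected on no array. Of 5 tested genes that make GTP, the substrate of Gch1, none passed in limma; Impdh1 read 0.33 ± 0.14 (adjusted p = 0.159) and Nme2 -0.33 ± 0.15 (adjusted p = 0.201). Cbr3, Impdh1 and Nme2 lie just outside the middle 50% of all tested genes (-0.23 to 0.20).

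The arginine transporter genes Slc7a7 and Slc7a2 read in opposite directions. Of 7 tested genes of arginine handling, Slc7a7, a light chain that exchanges cationic amino acids, fell: it read 7.92, 7.75 and 8.11 in GFP-positive and 8.82, 8.80 and 8.81 in GFP-negative cells (log2), a difference of -0.89 ± 0.12 (SE; limma adjusted p = 0.00405), and its other tested probe differed by -1.02. Slc7a2, the inducible cationic amino acid transporter CAT2, rose by ILMN_2642349, the only detected probe of its 5. All GFP-positive arrays detected this probe and no GFP-negative array did, which gives a rise of at least 1.61-fold. The probe passed the filter through GFP-positive cells alone, so its call supports nothing. Raw signals were 248.3, 264.5 and 257.5 on GFP-positive arrays, against 193.3, 174.0 and 163.5 on GFP-negative arrays, near the detection limit. The other Slc7a2 probes were detected on no array, so the rise rests on this probe alone. Its fitted difference was 1.12, against 0.43 without background correction. Both arginase genes, Arg1 and Arg2, and the main arginine carrier Slc7a1 were detected on no array. Ass1, which makes the precursor of arginine, averaged 6.77 ± 0.45 in the GFP-positive group and 6.08 ± 0.28 in the GFP-negative group (log2) (SD, n = 3 each), with overlapping groups (limma adjusted p = 0.116).

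Of 10 tested genes for proteins that bind NO synthases or handle the NOS inhibitor dimethylarginine, 2 rose and none fell. Since 15.8% of all tested genes passed in either direction, nothing is read from this count. Nostrin, which traffics endothelial NO synthase away from the membrane, read 8.15, 8.79 and 8.53 in GFP-positive and 5.85, 6.57 and 6.19 in GFP-negative cells (log2). It was detected on 3 of 3 GFP-positive and 1 of 3 GFP-negative arrays and rose 4.88-fold (log2 2.29 ± 0.23 SE, limma adjusted p = 0.00122). The difference was 1.26 without background correction. The other Nostrin probe was detected on no array. Cav1, the caveolar protein that holds endothelial NO synthase inactive, read 13.61, 13.58 and 13.62 in GFP-positive and 12.80, 12.75 and 12.72 in GFP-negative cells and rose 1.80-fold (log2 0.85 ± 0.09; limma adjusted p = 0.00175). Both therefore differed by far more than their spread, in cells where no probe of Nos3 was detected. The genes that clear the NOS inhibitor dimethylarginine, Ddah1 (0.37 ± 0.14) and Ddah2 (-0.23 ± 0.12), did not pass (limma adjusted p = 0.137 and 0.249).

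Of the 6 lists, that of the NO receptor, cyclic GMP effectors and breakdown held the most calls. NO itself was not measured. Of its 10 tested genes the list had 5 that rose and none that fell, where 8.65% of all tested genes rose. The 5 include Prkg1, whose other tested probe read 0.08 ± 0.26 (SE). Since the list was drawn up with earlier results of these arrays known, nothing is read from this count. The list median was 0.66, or 0.56 among the RG arrays and 0.86 among the KM arrays, beside -0.02 over all genes. Soluble guanylate cyclase is the receptor for NO, a dimer of an alpha and a beta subunit. Gucy1a1, the alpha-1 subunit gene, read 11.41, 12.05 and 11.86 in GFP-positive and 9.35, 8.97 and 9.42 in GFP-negative cells (log2). It rose 5.74-fold (log2 2.52 ± 0.20 SE; limma adjusted p = 0.000506), and another probe differed by 2.22. A further probe was detected in GFP-positive cells alone, through which it passed the filter, and was at least 3.01-fold higher. Gucy1b1, its beta-1 partner, read 8.40, 8.89 and 8.63 in GFP-positive and 7.35, 7.69 and 7.32 in GFP-negative cells. It rose 2.28-fold (log2 1.19 ± 0.17; limma adjusted p = 0.00473). The alpha-2 gene Gucy1a2 read -0.08 ± 0.18 and did not pass (limma adjusted p = 0.805).

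Downstream of the receptor, Prkg1, the cyclic GMP-dependent protein kinase, read 10.46, 10.79 and 11.16 in GFP-positive and 9.82, 9.78 and 10.21 in GFP-negative cells (log2). It rose 1.83-fold (log2 0.87 ± 0.21 SE; limma adjusted p = 0.0328), although its other tested probe read 0.08 ± 0.26 (adjusted p = 0.873), and the call ended under 5 of 17 alternatives. Cygb, a globin that consumes NO, read 12.96, 12.66 and 12.95 in GFP-positive and 11.81, 11.72 and 11.81 in GFP-negative cells and rose 2.11-fold (log2 1.08 ± 0.12; limma adjusted p = 0.00182). Mrvi1, a kinase substrate gene of the calcium store, rose 1.37-fold (limma adjusted p = 0.0469) and lost the call under 12 of 17 alternatives. The phosphodiesterase gene Pde1b read 0.98 ± 0.37 with overlapping groups (limma adjusted p = 0.128), and Pde5a, the phosphodiesterase best known for cyclic GMP, was detected on no array.

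**Figure D5:**
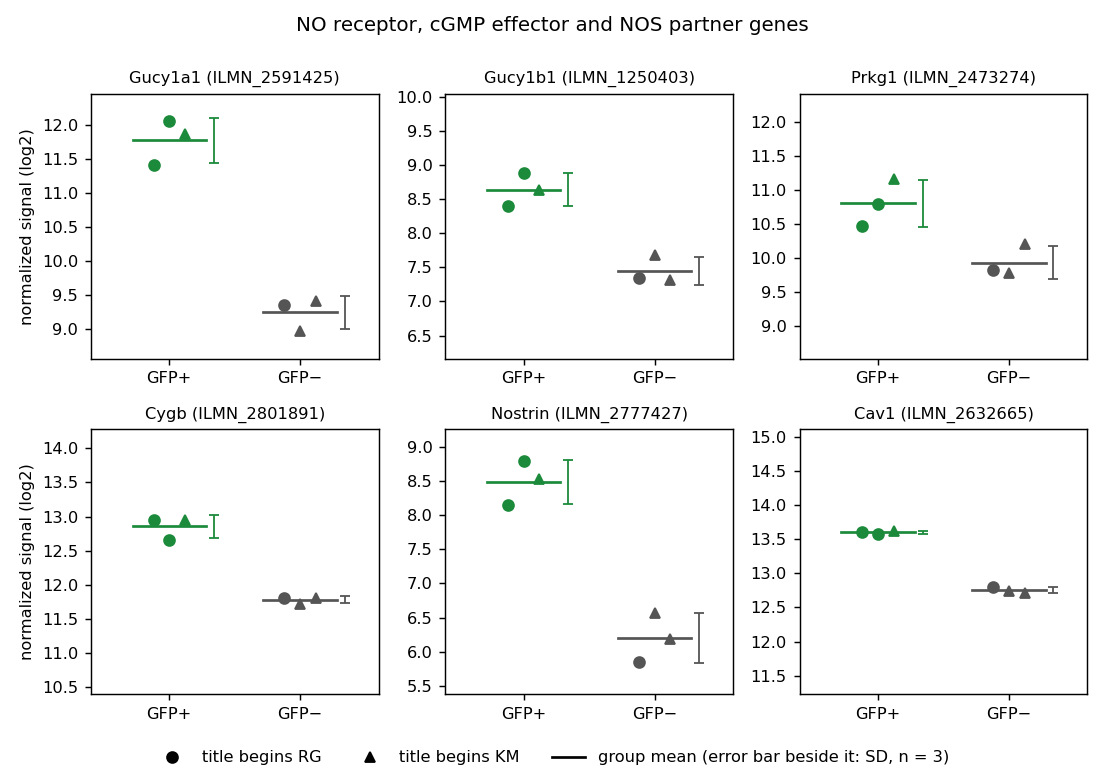
Normalized log2 signal of 6 genes of the NO receptor, cyclic GMP and breakdown list and of NOS binding on each array. GFP-positive is left of GFP-negative, with circles for RG and triangles for KM titles. Lines are group means, error bars SD (n = 3), and all panels span the same number of log2 units. In each of the 6 panels every GFP-positive array lies above every GFP-negative array, with Gucy1a1 between 11.41 and 12.05 against 8.97 and 9.42.

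Markers of mural cells were in part higher in GFP-positive cells as well. Mural cells are the contractile cells of vessel walls, in which the NO receptor and Prkg1 are known to be abundant. Of 10 mural markers with a probe 7 were tested, and Rgs5, Cspg4 and Higd1b were not. In limma 6 of the 7 rose and none fell, with a median of 1.09. Over all tested genes 8.65% rose and the median was -0.02. Abcc9 and Kcnj8 are among the 6 and passed the filter through GFP-positive cells alone, so their calls support nothing. Nothing is therefore read from this count or median. The others that rose were Myh11 (1.80 ± 0.22, SE), Notch3 (1.09 ± 0.13), Acta2 (0.95 ± 0.18) and Des (0.78 ± 0.18). Mcam read 0.45 ± 0.21 and did not pass (limma adjusted p = 0.188). The summed raw signal of the list was 13042 to 19242 on GFP-positive and 8155 to 10042 on GFP-negative arrays. Abcc9 and Kcnj8, subunit genes of one potassium channel, had no detection in GFP-negative cells and rose by at least 4.79-fold and 4.71-fold. The Kcnj8 bound depends on single arrays (log2 6.85, 10.09 and 8.32 in GFP-positive cells): it was 2.64-fold without GFP-positive replicate 2 and 8.11-fold without GFP-positive replicate 1. The part of mural cells in the Gucy1a1 and Gucy1b1 differences was not tested.

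Genes that carry the cytokine signals known to induce Gch1 and Nos2 were in part lower. By the brightest probe 3 of 11 tested genes fell and none rose, with a median of -0.32. Over all tested genes 7.17% fell and the median was -0.02. Without Jak1, which has probes of opposite sign, 2 of 10 fell, with a median of -0.27. This list too was drawn up with earlier results known, so nothing is read from these counts. The receptor gene Tnfrsf1a was detected on no array, and Il1r1 did not pass the filter. Nfkbia, the NF-κB inhibitor gene that is itself a target of NF-κB, read 11.23, 11.21 and 11.60 in GFP-positive and 11.90, 12.29 and 12.46 in GFP-negative cells (log2), a difference of -0.87 ± 0.18 (SE; limma adjusted p = 0.0222), and its other probe differed by -0.98. Cebpb, a transcription factor induced in inflammation and early in fat cell differentiation, was lower by -0.65 ± 0.11 (limma adjusted p = 0.0105). The kinase gene Jak1 cannot be given a direction: its brightest probe differed by -0.72 ± 0.16 (limma adjusted p = 0.0263) and another by 0.85 ± 0.18 (limma adjusted p = 0.0219). Nfkbia lost its call under 5 of 17 alternatives and Jak1 under 6, while Cebpb kept it under all 17 that were run. Irf1 (-0.06), Myd88 (-0.10) and Rela (0.02) were close to the median of all genes. The receptor genes Ifngr1 (-0.52 ± 0.16, limma adjusted p = 0.0752) and Tlr4 (-0.32 ± 0.10, limma adjusted p = 0.0661) did not pass. Nor did the kinase gene Jak2 by its brightest probe (-0.46 ± 0.13, limma adjusted p = 0.0547), although its groups did not overlap. Ifngr2 (-0.21 ± 0.30) and Stat3 (-0.09 ± 0.53) had overlapping groups and did not pass either.

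The genes with the pattern most like that of Gch1 over the 6 arrays were Kcnk13 (a potassium channel gene), Tfcp2l1 (a transcription factor gene), Mcoln2 (a cation channel gene), Itgb6 (an integrin chain gene) and Cyp2c65 (a cytochrome P450 gene). Likeness was the root mean square distance between log2 values centred on each gene's own mean, and it was 0.34 for Kcnk13 and 0.48 for Cyp2c65. Tfcp2l1 was detected on all 6 arrays and read 6.99, 7.14 and 8.07 in GFP-positive and 9.64, 9.98 and 10.03 in GFP-negative cells. Like Gch1, it was highest on the KM array among the GFP-positive arrays and lowest on the RG array among the GFP-negative arrays. It was picked for its likeness to Gch1 on these same arrays, so the shared order is in part fixed by that choice. The other 4 lacked detection on every GFP-positive array and passed the filter through GFP-negative cells alone. Their GFP-positive values are background and their falls are bounds of at least 1.96-fold (Cyp2c65) to 3.11-fold (Itgb6).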

How the data were processed

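The deposited non-normalized table held intensity values per probe on a linear scale and a detection p-value per probe and array, per the file headers. The submitters' processing notes name GenomeStudio (version not given in the sources used here). RNA was amplified in 2 rounds before labelling, per the labels' protocols. The authors' second table held normalized intensity values of the same arrays and served as an alternative.

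The platform annotation gave 34885 of 45281 probes a single gene symbol, 18 probes several and 10378 none. Signals were processed in limma 3.58.1 (R 4.3.3) with neqc: normexp background correction from detection p-values, offset 16, quantile normalization and log2. Probes with detection p under 0.01 on at least 3 of 6 arrays were tested (13727 probes, 8819 genes) by lmFit and eBayes (2-sided). Benjamini-Hochberg adjustment ran over the tested probes, and calls were made at 0.05. A listed gene is its brightest tested probe. Where a probe was not detected in a whole group, the fold is a lower bound against the higher of its own value and the lowest detected value on each array. The procedure was tested on simulated data. There every probe had the same spread and the title letters had no effect, so the simulation does not cover genes that vary as much as Gch1. The number of arrays limits the precision, and the p-values measure the spread between these samples.

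Named genes were all 9 members, up to 6 called genes per pathway list by p (up to 2 where none passed), the 5 nearest to Gch1 and the sort markers; further listed genes were chosen after their values were seen. The members and lists were chosen with earlier results of these data known. Alternatives were the authors' values, no background correction, median scaling, 4 detection filters, blocks for the title letters and for the replicate number, a variance trend with robust prior, array weights, a threshold of 0.01, the mean over a gene's probes and leaving out each array.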

Additional observations from a re-analysis of the deposited data

How the results depend on the processing

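The difference of Gch1, which helped to choose the set, is a description: it lay between -3.21 and -2.51 over 17 alternatives. The count of the 9 genes' probes past the threshold, 4 as reported, was 2 without a detection filter, 2 with detection on all 6 arrays, 2 with the title letters as a block, 2 with the replicate block, 2 at a threshold of 0.01, and 2 to 3 with single arrays left out. It was 5 with median scaling and 5 with the variance trend and robust prior. Nothing is read from this count. The probes past the threshold over the whole array, 2144 as reported, were 1421 with the replicate block, 854 at a threshold of 0.01 and 1065 to 1759 with single arrays left out. Genes past it, 1395 as reported, were 589 at 0.01 and 719 to 1164 with single arrays left out (719 when GFP-negative replicate 2 was left out, of which 64.1% were higher, and 756 when replicate 3 of that group was, 63.6% higher, beside 54.7% as reported; at 0.01 the share was 64.7%). The 12 called pathway genes became 7 at 0.01 and 8 to 11 with single arrays left out. With the variance trend and robust prior these counts rose to 2553 probes, 1736 genes and 16 pathway genes. Samples that share a replicate number did not deviate together (correlations of -0.07, -0.20 and 0.07), so the replicate block was not taken as a pairing. The highest correlations were those of GFP-positive replicate 2 with GFP-negative replicate 1 (0.25) and GFP-positive replicate 3 with GFP-negative replicate 2 (0.16). The titles in each of these pairs carry consecutive codes, and a pairing by title code was not tested. For the brighter Gch1 probe alone, same-numbered arrays differed by -2.93, -2.88 and -2.81, and the SE was 0.12 with the replicate block, 0.27 with the title letters as a block and 0.40 as reported. Over 21 other gene or probe results and 353 alternative values, none reversed a call, 44 lost and 2 gained one. The values without Tek, Lyz2 or Jak1 and the Kcnj8 bounds without 1 array were chosen after seeing the data. The causes were not tested. Signal over background limits Gchfr and the NO synthases, which could not be compared between groups.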
